A study of Mus musculus with 6 samples.

Results

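Mitochondrial ribosomal protein genes are nuclear genes that encode the proteins of the ribosome that works inside mitochondria. They were taken by symbol, as every protein-coding gene named Mrpl or Mrps with a number and an optional letter, among array rows that carry 1 gene symbol. That gave 71 of 22180 genes, 43 with an Mrpl symbol (large subunit) and 28 with an Mrps symbol (small subunit). For a further 7 genes, Mrpl30, Mrpl33, Mrpl41, Mrpl43, Mrpl44, Mrpl53 and Mrps6, every row also carried the symbol of another gene, so they have no value of their own. The symbol and the place of the protein disagree for 3 genes: from structures of the mammalian ribosome, the products of Mrps18a and Mrps30 are known to sit in the large subunit, and that of Mrps36 is known as a part of the oxoglutarate dehydrogenase complex.

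The samples were whole embryonic hearts of strain C57BL/6 at embryonic day 9.5, pooled before RNA extraction. One group of 3 pools had the genotype Hdac3-flox/flox; Isl1-Cre, called Hdac3-Isl1KO, and the other group of 3 pools was Hdac3-flox/flox. Both groups carry the floxed allele of Hdac3, a histone deacetylase of corepressor complexes, and Cre is present only in the first, so Cre itself and the loss of Hdac3 cannot be told apart. Isl1-Cre acts in Isl1-expressing cells, among them the second heart field, so only part of a heart is recombined. The comparison asks what the loss of Hdac3 in that lineage does to gene expression in the heart. The number of hearts in a pool and their litters were not given, so p-values measure the spread between pools, which may be technical.

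The mitochondrial ribosome translates the few proteins encoded by mitochondrial DNA, all of them subunits of the respiratory chain and ATP synthase. Its RNAs come from mitochondrial DNA, while all its proteins are imported from the cytosol. Compared with its bacterial relatives it has lost ribosomal RNA and gained proteins, so that many of its members have no bacterial counterpart. In humans, mutations in several of these genes, MRPL3, MRPL44, MRPS14 and MRPS22 among them, cause respiratory chain defects that can include cardiomyopathy.

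Promoter windows show what many of these genes share before any expression value. RefSeq windows on GRCm38.p6, each from 250 bases before to 50 bases after a start, were found for 62 of the 71 genes, 68 windows in all, and for 15359 measured protein-coding genes. A gene is counted once where any of its windows holds a match. The letters CCGGAAG, a core read by ETS factors such as the nuclear respiratory factor GABP, stood on either strand in 23 of the 62 mitochondrial ribosomal protein genes (37.1%) and in 13.3% of the 15359 genes. AAGATGGC, a core of the YY1 motif, stood in 12 of the 62 mitochondrial ribosomal protein genes (19.4%) and in 3.72% of the 15359 genes, and GCATGCGC, part of the NRF1 motif, in 7 of the 62 mitochondrial ribosomal protein genes (11.3%) and in 4.23% of the 15359 genes. CG dinucleotides were also more frequent, at a median of 7.02 per 100 dinucleotides in windows of mitochondrial ribosomal protein genes and 4.68 over all windows, and the ETS, NRF1 and E-box letters contain CG. The TATA box letters TATAAA stood in 5 of the 62 mitochondrial ribosomal protein genes (8.06%) and in 14.4% of the 15359 genes, the CCAAT box in 24 of the 62 mitochondrial ribosomal protein genes (38.7%) and in 41.9% of the 15359 genes, and the E-box CACGTG in 5 of the 62 mitochondrial ribosomal protein genes (8.06%) and in 9.40% of the 15359 genes. Overlaps between motifs were allowed, and no motif contains another. Matches of letters are a description and not evidence of binding.

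Windows are shown for the pair of genes with the largest positive differences (Mrpl52 and Mrps33), for Mrpl22, which carries both an ETS and an NRF1 match, and for Mrps2, the gene with the largest negative difference. They lie at chr14:54426659-54426958, plus strand (Mrpl52), chr6:39810887-39811186, minus strand (Mrps33), chr11:58171414-58171713, plus strand (Mrpl22) and chr2:28467816-28468115, plus strand (Mrps2). Capitals mark the matches to the searched letters on either strand. Mrpl52 has 2 ETS matches, Mrps33 has 1 ETS match, Mrpl22 has 1 ETS and 1 NRF1 match, and the window of Mrps2 has none of the 6 motifs.
Mrpl52: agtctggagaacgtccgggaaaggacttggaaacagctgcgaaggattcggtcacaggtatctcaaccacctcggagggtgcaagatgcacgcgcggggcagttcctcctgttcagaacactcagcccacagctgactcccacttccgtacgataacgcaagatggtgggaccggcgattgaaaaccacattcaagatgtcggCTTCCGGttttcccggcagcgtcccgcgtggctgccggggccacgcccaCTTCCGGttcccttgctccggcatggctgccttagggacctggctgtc
Mrps33: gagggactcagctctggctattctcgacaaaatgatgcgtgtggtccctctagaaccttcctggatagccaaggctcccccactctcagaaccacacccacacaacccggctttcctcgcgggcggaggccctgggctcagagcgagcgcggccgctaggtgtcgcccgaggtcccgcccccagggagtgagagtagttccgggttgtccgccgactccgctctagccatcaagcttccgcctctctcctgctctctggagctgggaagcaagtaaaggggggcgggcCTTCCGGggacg
Mrpl22: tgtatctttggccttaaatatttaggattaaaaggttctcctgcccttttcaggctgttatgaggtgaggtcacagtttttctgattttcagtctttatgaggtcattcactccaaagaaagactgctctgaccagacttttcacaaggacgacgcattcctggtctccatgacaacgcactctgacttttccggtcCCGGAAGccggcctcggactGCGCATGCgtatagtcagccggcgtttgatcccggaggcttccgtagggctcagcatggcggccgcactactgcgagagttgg
Mrps2: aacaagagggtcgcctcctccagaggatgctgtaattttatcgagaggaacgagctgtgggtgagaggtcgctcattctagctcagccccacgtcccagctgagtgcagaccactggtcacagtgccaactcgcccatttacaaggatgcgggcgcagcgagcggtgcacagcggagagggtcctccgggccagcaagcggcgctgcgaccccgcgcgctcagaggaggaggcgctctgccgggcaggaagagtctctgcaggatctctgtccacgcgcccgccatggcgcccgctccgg

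Expression was read as RMA log2 values on Affymetrix arrays. Array medians lay between 5.64 and 5.71, and the lowest correlation between any pair of arrays was 0.980. Hdac3 itself averaged 9.21 ± 0.10 in the Hdac3-Isl1KO pools and 9.68 ± 0.048 in the Hdac3-flox/flox pools (SD, n = 3 each), a difference of -0.47 (95% interval -0.66 to -0.29, limma adjusted p = 0.0636), with separate groups, and whether the probes lie in the floxed part was not given. Of 8 heart muscle markers all were above the median row of 5.66. As means over the 6 arrays, so were all 4 measured trophoblast markers, whose values were higher in the Hdac3-Isl1KO pools. This level therefore does not test the tissue label. With limma and Benjamini-Hochberg adjustment over all genes, 51 genes rose and 44 fell in Hdac3-Isl1KO hearts, 0.428% of 22180, and with 1 array left out 2 to 25 genes passed.

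Over the family, values leaned upward in Hdac3-Isl1KO hearts without any single gene passing the test. Of the 71 genes, 48 had a higher mean in Hdac3-Isl1KO pools and 23 a lower one, and the median difference (Hdac3-Isl1KO minus Hdac3-flox/flox, log2) was 0.12, with quartiles of -0.010 and 0.22. Over all genes the median was 0.000094, and over the 12480 genes whose mean lies above the median row, as it does for all 71, it was -0.022. By limma 0 of 71 genes had an adjusted p under 0.05. At an unadjusted p under 0.05, 22 of the 71 were higher (31.0%, against 6.57% of all genes and 6.66% of genes above the median row) and 1 was lower (1.41%, against 7.96% and 11.5%). With quantile normalization, which moved the median of all genes by 0.020, 60 of the 71 were above 0 (12334 of all 22180), and with arrays centred on their medians 45 were (10331 of 22180). In whole hearts, a change in the share of cells that express these genes and a change in the RNA of each cell cannot be told apart.

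Separation of the arrays gave a like picture. In 25 of 71 genes (35.2%) every Hdac3-Isl1KO pool read above every Hdac3-flox/flox pool, against 9.41% of all genes and 10.9% of those above the median row. In 2 genes, Mrps2 and Mrpl4, every Hdac3-Isl1KO pool read below (2.82%, against 12.4% and 18.7%). The size of the differences was small: 20 genes differed by more than 0.2 upward and 1 by more than 0.2 downward, within a range from -0.28 to 0.50. Calls depended on the variance model. A limma prior that follows the mean level called 8 genes higher (Mrpl52, Mrps33, Mrpl54, Mrpl18, Mrpl22, Mrps28, Mrpl23 and Mrpl11, limma adjusted p from 0.000631 to 0.0498) where it called 1.6% of all genes higher, and with robust estimation 7 where it called 1.62%. Testing only genes above the median row called 4 higher (background 2.09%), only genes above the 25th percentile row 2 (0.712%), array weights 2 (0.609%) and quantile normalization 1 (0.388%), and none of these alternatives called any of the 71 lower.

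**Figure D1:**
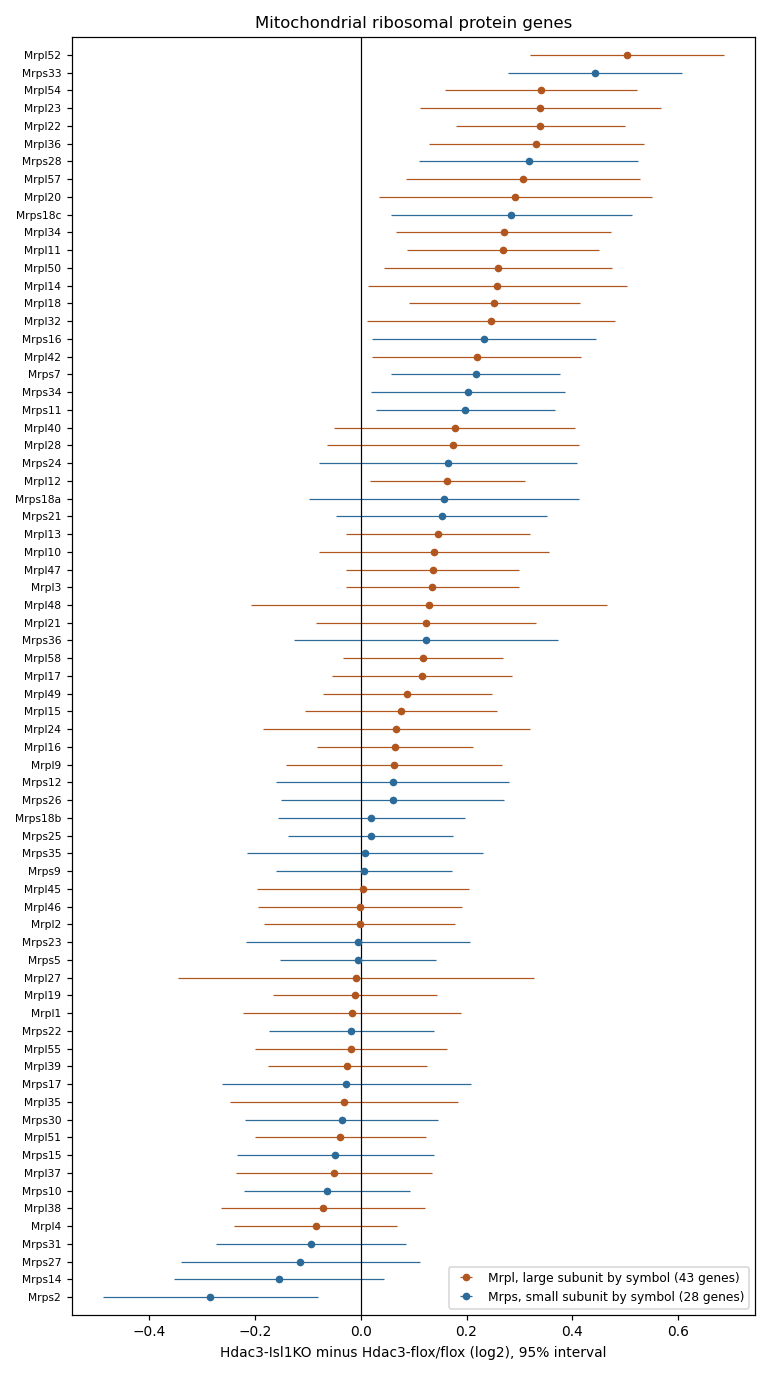
Differences between Hdac3-Isl1KO and Hdac3-flox/flox hearts (x axis, log2) for each of the 71 mitochondrial ribosomal protein genes (y axis), with 95% intervals from limma; orange points are Mrpl genes and blue points Mrps genes. Values run from -0.28 for Mrps2 to 0.50 for Mrpl52, and 48 of the 71 lie above 0.

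Markers of other tissues differed between the same pools. The log2 values of 6 hepatic and yolk sac endoderm markers summed to 36.8 to 37.0 in the Hdac3-Isl1KO pools and 32.7 to 34.2 in the Hdac3-flox/flox pools, with 6 of 6 above 0. Those of 5 epithelial markers summed to 33.5 to 33.9 in the Hdac3-Isl1KO pools and 31.4 to 31.6 in the Hdac3-flox/flox pools, 5 of 5 above 0, and those of 4 measured trophoblast markers to 28.2 to 28.8 in the Hdac3-Isl1KO pools and 22.5 to 23.2 in the Hdac3-flox/flox pools, 4 of 4 above 0. All 4 trophoblast markers were past the threshold with limma, where 0.428% of all genes passed in either direction. Of the 4, 1 passed without Hdac3-Isl1KO replicate 1 or without Hdac3-flox/flox replicate 3. It was 2 without Hdac3-flox/flox replicate 1, and 3 when Hdac3-Isl1KO replicate 2 or 3 was omitted. The replicate block called none of the 4. Groups were separate in every one of these 15 genes, all higher. The share separate and higher was 9.41% of all genes and 10.9% of those above the median row. Of 8 heart muscle markers 6 were below 0, all with separate groups. The share separate and lower was 12.4% of all genes and 18.7% of those above the median row. The other 2 heart muscle markers were above 0, Myl7 (0.16) with separate groups and Tnni1 (0.016) with overlap. Sums over the 8 markers were 93.7 to 94.0 in the Hdac3-Isl1KO pools and 94.4 to 94.5 in the Hdac3-flox/flox pools. Endothelial markers summed to 45.0 to 45.2 in the Hdac3-Isl1KO pools and 45.1 to 45.3 in the Hdac3-flox/flox pools (3 of 5 above 0), primitive blood markers to 33.0 to 33.3 in the Hdac3-Isl1KO pools and 32.9 to 33.3 in the Hdac3-flox/flox pools (1 of 3) and neural markers to 16.0 to 16.6 in the Hdac3-Isl1KO pools and 15.9 to 16.1 in the Hdac3-flox/flox pools (2 of 3), each with overlap of the sums. Single genes of these lists did have separate groups. These were the blood genes Hbb-bh1 (0.28) and Hbb-y (-0.14), which offset each other in the sum, and the endothelial gene Tek (-0.17). Of the markers in all these lists, only the neural gene Sox2 lay below the 25th percentile row, 4.45. The part of these tissues in the values of the mitochondrial ribosomal protein genes was not tested.

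Large subunit proteins gave the highest value of the family. Mrpl52, a protein with no bacterial counterpart that belongs to the central protuberance, the crest of the large subunit facing the small one, read 10.19, 10.03 and 10.05 in the Hdac3-Isl1KO pools, against 9.53, 9.67 and 9.56 in the Hdac3-flox/flox pools. The groups did not overlap, and the gap between the lowest Hdac3-Isl1KO and the highest Hdac3-flox/flox value was wider than the spread within either group. Its difference was 0.50 (95% interval 0.32 to 0.69, limma adjusted p = 0.0572), or 1.42-fold higher, just outside the threshold of 0.05, and it passed under 6 of the alternatives (range of limma adjusted p over all settings 0.000596 to 0.224). Mrpl54, another protein found only in mitochondria, read 9.06, 9.04 and 9.15 in the Hdac3-Isl1KO pools, against 8.82, 8.76 and 8.64 in the Hdac3-flox/flox pools, with a difference of 0.34 (95% interval 0.16 to 0.52, limma adjusted p = 0.141). All 3 Hdac3-Isl1KO values stood above all 3 control values there too.

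The rim of the tunnel through which the new protein leaves is lined by Mrpl22 and Mrpl23, both relatives of bacterial proteins of the same place. Mrpl22 read 7.001, 6.92 and 7.05 in the Hdac3-Isl1KO pools, against 6.63, 6.68 and 6.64 in the Hdac3-flox/flox pools. The control pools were tightly grouped, and the difference was 0.34 (95% interval 0.18 to 0.50, limma adjusted p = 0.103). Mrpl23 read 7.98, 8.11 and 8.26 in the Hdac3-Isl1KO pools, against 7.89, 7.73 and 7.71 in the Hdac3-flox/flox pools, with a difference of 0.34 (95% interval 0.11 to 0.57, limma adjusted p = 0.205). Its Hdac3-Isl1KO pools spread over a wider range than those of Mrpl22, and the groups were separate but close. Of the other measured genes of the rim, Mrpl17 differed by 0.12, Mrpl47 by 0.14, Mrpl24 by 0.067, Mrpl45 by 0.0045 and Mrpl39 by -0.026. Thus 6 of 7 measured rim genes were above 0 (5 of 7 with arrays centred on their medians), and only Mrpl22 and Mrpl23 (28.6%) had an unadjusted p under 0.05, where 6.57% of all genes were higher and 6.66% of those above the median row.

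The stalk, to which translation factors bind, is made by Mrpl10, Mrpl11 and Mrpl12, and Mrpl1 forms another, mobile stalk at the exit of spent tRNA. Mrpl11 read 8.27, 8.35 and 8.15 in the Hdac3-Isl1KO pools, against 7.97, 8.04 and 7.95 in the Hdac3-flox/flox pools, a difference of 0.27 (95% interval 0.088 to 0.45, limma adjusted p = 0.205). Mrpl12 read 8.61, 8.68 and 8.64 in the Hdac3-Isl1KO pools, against 8.47, 8.51 and 8.47 in the Hdac3-flox/flox pools, and although its difference of 0.16 (95% interval 0.016 to 0.31, limma adjusted p = 0.300) was smaller, the groups did not overlap and the replicates lay close together. Mrpl10 differed by 0.14 with overlapping groups, and Mrpl1 by -0.017. Among central protuberance genes other than Mrpl52, Mrpl18 read 9.75, 9.65 and 9.73 in the Hdac3-Isl1KO pools, against 9.47, 9.501 and 9.40 in the Hdac3-flox/flox pools, a difference of 0.25 (95% interval 0.091 to 0.41, limma adjusted p = 0.191), again with separate groups. Mrpl40 (0.18), Mrpl48 (0.13), Mrpl46 (-0.0010) and Mrpl38 (-0.072) had overlapping groups.

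Further large subunit genes with separate groups and a higher Hdac3-Isl1KO mean included Mrpl36, Mrpl57, Mrpl34, Mrpl50, Mrpl14 and Mrpl42. Mrpl36, relative of one of the smallest bacterial ribosomal proteins, read 7.03, 6.83 and 6.88 in the Hdac3-Isl1KO pools, against 6.56, 6.69 and 6.50 in the Hdac3-flox/flox pools, a difference of 0.33 (95% interval 0.13 to 0.54, limma adjusted p = 0.177). The difference of Mrpl57 was 0.31 (95% interval 0.086 to 0.53, limma adjusted p = 0.226) and that of Mrpl34 0.27 (95% interval 0.066 to 0.47, limma adjusted p = 0.240). Mrpl20, whose bacterial relative is needed early in assembly, had a difference of similar size, 0.29, but its lowest Hdac3-Isl1KO pool (6.71) lay below its highest Hdac3-flox/flox pool (6.75). Mrpl3, a cardiomyopathy gene in humans, read 8.51, 8.46 and 8.44 in the Hdac3-Isl1KO pools, against 8.41, 8.31 and 8.28 in the Hdac3-flox/flox pools, a difference of 0.14 (95% interval -0.028 to 0.30, limma adjusted p = 0.428). The groups were separate for Mrpl3, but the interval included 0. Mrpl58, a peptidyl-tRNA hydrolase built into the ribosome, had a difference of 0.12 (95% interval -0.034 to 0.27, limma adjusted p = 0.457).

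Of the large subunit genes 12 had negative differences, and all of these were small. The largest were Mrpl4 (-0.086, separate groups), Mrpl38 (-0.072), Mrpl37 (-0.051), Mrpl51 (-0.039) and Mrpl35 (-0.033), and none had an unadjusted p under 0.05.

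**Figure D2:**
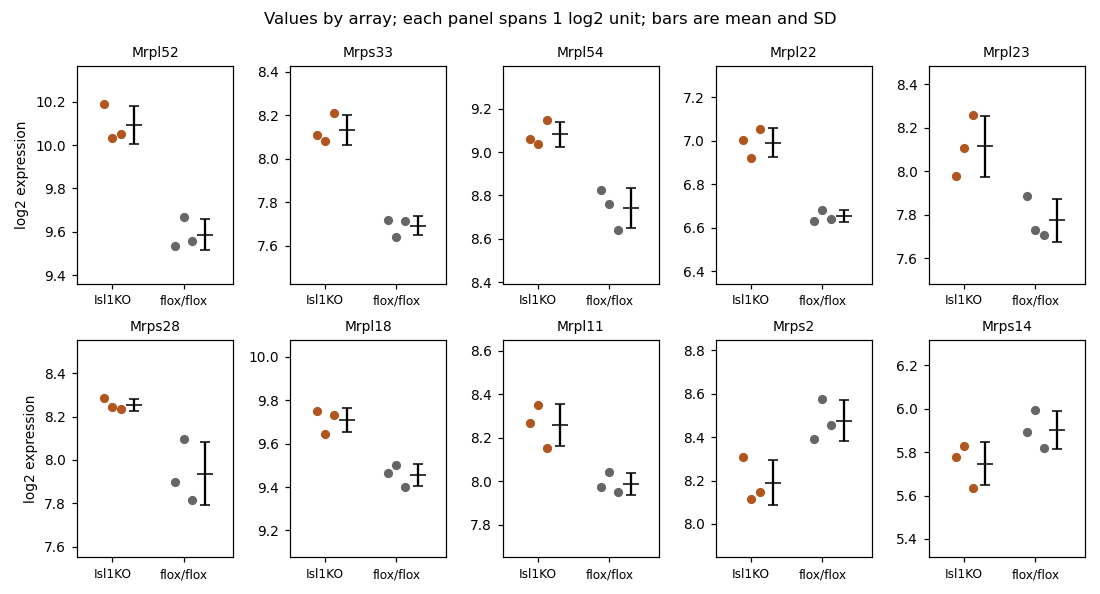
Log2 expression (y axis, each panel spanning 1 log2 unit) of 10 genes in the 3 Hdac3-Isl1KO pools (orange) and the 3 Hdac3-flox/flox pools (grey), with the mean and SD beside the points. In Mrpl52, Mrps33, Mrpl54, Mrpl22, Mrpl23, Mrps28, Mrpl18 and Mrpl11 every Hdac3-Isl1KO point is above every Hdac3-flox/flox point, in Mrps2 every one is below, and in Mrps14 the groups overlap.

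The small subunit held both the largest negative value and the next to largest positive one. Mrps33, a small subunit protein with no bacterial counterpart, read 8.11, 8.08 and 8.21 in the Hdac3-Isl1KO pools, against 7.72, 7.64 and 7.71 in the Hdac3-flox/flox pools. The groups were far apart relative to their spread, and the difference was 0.44 (95% interval 0.28 to 0.61, limma adjusted p = 0.0605), or 1.36-fold higher, also just outside the threshold (range over all settings 0.00300 to 0.234). Mrps28, relative of a bacterial protein that helps hold messenger RNA, read 8.29, 8.24 and 8.23 in the Hdac3-Isl1KO pools, against 7.90, 8.10 and 7.82 in the Hdac3-flox/flox pools. Here the control pools were spread over a wider range than the Hdac3-Isl1KO pools, with replicate 2 the highest of them, and the difference was 0.32 (95% interval 0.11 to 0.53, limma adjusted p = 0.197). Mrps18c, the member of a set of 3 paralogues that takes the place of the bacterial protein, had a difference of 0.28 (95% interval 0.056 to 0.51, limma adjusted p = 0.257). Mrps16, Mrps7, Mrps34 and Mrps11 also had separate groups, with differences of 0.23, 0.22, 0.20 and 0.20.

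Mrps2, relative of a protein on the back of the bacterial small subunit, was the lowest of the family. It read 8.31, 8.12 and 8.15 in the Hdac3-Isl1KO pools, against 8.39, 8.58 and 8.46 in the Hdac3-flox/flox pools. All 3 Hdac3-Isl1KO pools lay below the controls, and the difference was -0.28 (95% interval -0.49 to -0.082, limma adjusted p = 0.223), 1.22-fold lower. Mrps14, next in order, read 5.78, 5.83 and 5.64 in the Hdac3-Isl1KO pools, against 5.89, 5.99 and 5.82 in the Hdac3-flox/flox pools, with overlapping groups and a difference of -0.15 (95% interval -0.35 to 0.045, limma adjusted p = 0.458). Mrps27 (-0.11), Mrps31 (-0.094), Mrps10 (-0.063) and Mrps15 (-0.048) followed among small subunit genes, and their intervals included 0. Mrps22, like Mrps14 a gene of mitochondrial cardiomyopathy in humans, had a difference of -0.018 (95% interval -0.17 to 0.14, limma adjusted p = 0.930). On the path of the messenger RNA, Mrps12, in the decoding centre, differed by 0.061, Mrps24 by 0.16 and Mrps5 by -0.0056, all with overlapping groups.

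Among the 3 genes whose symbol and place disagree, Mrps18a differed by 0.16, Mrps36 by 0.12 and Mrps30 by -0.036, and none had separate groups. Mrps18b, a paralogue of Mrps18a and Mrps18c, differed by 0.020, and a slightly dimmer row of the same gene by 0.24. Of the 9 genes with more than 1 row, rows disagreed in sign for Mrpl10 (0.14 and -0.060) and Mrps18c (0.28 and -0.0022). For Mrpl12, Mrpl36, Mrpl47 and Mrps16 both rows were positive, the dimmer ones at 0.29, 0.039, 0.12 and 0.22. Both rows of Mrps17 (-0.028 and -0.16) and Mrps5 (-0.0056 and -0.063) were negative.

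Set side by side, the large subunit genes leaned upward more than the small subunit genes. Of 43 Mrpl genes 31 were above 0, with a median of 0.13 and quartiles of -0.0017 and 0.26, and of 28 Mrps genes 17 were above 0, with a median of 0.019 and quartiles of -0.030 and 0.17. The 2 medians differed by 0.11. The Mrps median was small and unsteady: it was 0.010 without Hdac3-Isl1KO replicate 1, 0.050 without Hdac3-Isl1KO replicate 2, 0.039 without Hdac3-flox/flox replicate 2 and 0.040 with the mean of a gene's rows. With quantile normalization it was 0.068 (22 of 28 above 0), and with arrays centred on their medians 0.0061 (15 of 28). Every Hdac3-Isl1KO pool read above every Hdac3-flox/flox pool in 18 of 43 Mrpl genes and in 7 of 28 Mrps genes, against the 9.41% of all genes. The ranges of the 2 subunits overlapped widely, and the difference of means was smaller, 0.070, than that of medians. With genes placed by structure (46 large and 27 measured small, adding Gadd45gip1 to the large and Dap3 and Ptcd3 to the small subunit) the difference of medians was 0.11 as well. No p is given, since genes of a family are not replicates.

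By array, each gene was set against its own mean over the 6 arrays and the median of these deviations was taken. For Mrpl genes it was 0.074, 0.028 and 0.059 in the Hdac3-Isl1KO pools, against -0.060, 0.0080 and -0.12 in the Hdac3-flox/flox pools. All Hdac3-Isl1KO pools lay above all control pools. For Mrps genes it was 0.050, -0.0026 and 0.0034 in the Hdac3-Isl1KO pools, against -0.030, 0.029 and -0.085 in the Hdac3-flox/flox pools, and there the groups overlapped, with Hdac3-flox/flox replicate 2 above Hdac3-Isl1KO replicates 2 and 3. The large minus small value was 0.023, 0.031 and 0.055 in the Hdac3-Isl1KO pools and -0.031, -0.021 and -0.037 in the Hdac3-flox/flox pools, so its sign separated the groups. With arrays centred on their medians, the Mrpl groups overlapped. There Hdac3-Isl1KO replicates 2 (0.011) and 3 (0.038) both lay below Hdac3-flox/flox replicate 2 (0.045). With quantile normalization both the Mrpl and the Mrps values were separate. With quantile normalization the large minus small value was again above 0 in the Hdac3-Isl1KO pools and below 0 in the Hdac3-flox/flox pools, and centring cannot change it.

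Pools of one genotype were not alike. Hdac3-flox/flox replicate 3 held the lowest value of 29 of the 71 genes, and Hdac3-flox/flox replicate 2 the highest of 20, nearly as many as the 23 of Hdac3-Isl1KO replicate 1. The family median of 0.12 was 0.081 without Hdac3-flox/flox replicate 3 and 0.079 without Hdac3-Isl1KO replicate 1, and was 0.14 without Hdac3-Isl1KO replicate 2. With any 1 array left out the large minus small difference stayed between 0.084 and 0.10.

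**Figure D3:**
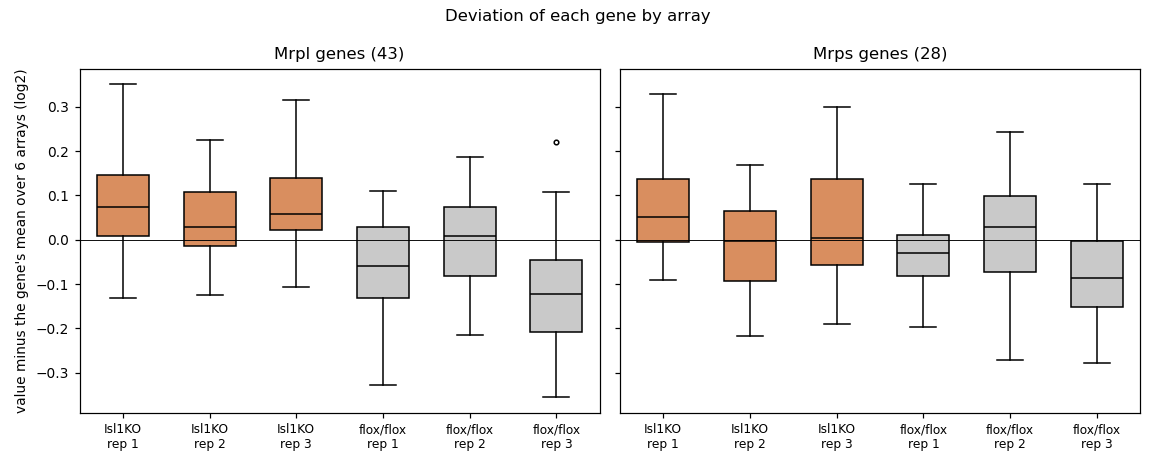
Deviation of each gene from its own mean over the 6 arrays (y axis, log2) in each array (x axis), for 43 Mrpl genes (left) and 28 Mrps genes (right); boxes span the quartiles with the median as a line, whiskers reach the farthest gene that is not drawn as a point. The Mrpl medians of the Hdac3-Isl1KO pools (orange) are all above those of the Hdac3-flox/flox pools (grey), while for Mrps genes Hdac3-flox/flox replicate 2 lies above Hdac3-Isl1KO replicates 2 and 3.

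A split by origin mixed the subunits in other shares. The 43 measured genes listed with a relative in the bacterial ribosome had 30 above 0, a median of 0.14 and a mean of 0.11. The 25 listed without one had 16 above 0, a median of 0.020 and a mean of 0.099. That list of 25 holds Mrps18b, although it is a paralogue of Mrps18c. The median of the list is the value of Mrps18b itself, whose dimmer row gave 0.24. In 16 (37.2%) and 9 (36.0%) genes of these lists all Hdac3-Isl1KO pools were above the controls. The shares were 9.41% of all genes and 10.9% of those above the median row. Within the large subunit the medians were 0.14 for 28 genes with bacterial relatives and 0.12 for 15 without, and within the small subunit 0.061 for 15 and 0.013 for 10.

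Among other genes of mitochondrial protein synthesis, those for tRNA synthetases leaned downward. Of 16 measured mitochondrial tRNA synthetase genes, which charge tRNAs with amino acids, 14 were below 0 and the median was -0.15, and 8 had all Hdac3-Isl1KO pools below all Hdac3-flox/flox pools, where 12.4% of all genes and 18.7% of those above the median row did. The lowest unadjusted p-values were those of Lars2 (-0.23), Nars2 (-0.20), Ears2 (-0.18) and Yars2 (-0.20). None of the 16 passed with limma over all genes, while 6 (37.5%) were lower at an unadjusted p under 0.05 and 0 higher, where 7.96% of all genes and 11.5% of those above the median row were lower.

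Translation factors and related genes had 14 of 18 below 0 and a median of -0.10. Oxa1l, which inserts the new proteins into the inner membrane, read 10.80, 10.82 and 10.79 in the Hdac3-Isl1KO pools, against 11.02, 11.04 and 10.98 in the Hdac3-flox/flox pools. Its groups were separate, with a difference of -0.21 (95% interval -0.36 to -0.063, limma adjusted p = 0.216). Oxa1l was the 1 gene of this list called (lower) with the trended prior, which called 511 of all 22180 genes lower. Metap1d (-0.26), Qrsl1 (-0.19) and Mtfmt (-0.17), a formyltransferase for the initiator tRNA, had separate groups and did not pass. Genes of ribosome assembly and ribosomal RNA modification had 13 of 22 below 0 and a median of -0.035. Of the 12480 genes above the median row, 7076 were below 0. Every Hdac3-Isl1KO pool read below every Hdac3-flox/flox pool in 4 of the 22 assembly genes (18.2%). The same held in 4 of the 18 translation factor genes (22.2%), against 12.4% of all genes and 18.7% of those above the median row. Mrm3, a methyltransferase of the large ribosomal RNA, read 7.42, 7.49 and 7.41 in the Hdac3-Isl1KO pools, against 7.60, 7.84 and 7.75 in the Hdac3-flox/flox pools, a difference of -0.29 (95% interval -0.48 to -0.092, limma adjusted p = 0.206). Mettl17 (-0.27), Mterf3 (-0.21) and Nsun4 (-0.49), a methyltransferase and assembly factor, followed, Nsun4 with overlapping groups. With quantile normalization the median of this list was above 0 (0.020), and those of the translation factors and tRNA synthetases were -0.058 and -0.10. By limma 0 of both lists passed over all genes, with 3 translation factor genes (16.7%) and 4 assembly genes (18.2%) at an unadjusted p under 0.05, all lower, against the same 7.96% and 11.5%.

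The genes for copying and transcribing mitochondrial DNA had 7 of 13 above 0 and a median of 0.019. Ssbp1, which coats single-stranded mitochondrial DNA, read 9.82, 9.61 and 9.61 in the Hdac3-Isl1KO pools, against 9.38, 9.43 and 9.24 in the Hdac3-flox/flox pools. Its groups were separate, with a difference of 0.33 (95% interval 0.11 to 0.54, limma adjusted p = 0.197). Ssbp1 was the 1 gene of this list called (higher) with the trended prior (limma adjusted p = 0.0251), which called 1.6% of all genes higher. Tfb2m (-0.30), Trmt10c (0.13) and Twnk (-0.10) had overlapping groups. Of the 10 measured genes encoded by mitochondrial DNA, all but ND6 had group means of 13.2 or more. The highest value on any array was 14.15, and how such a level bears on the size of a difference was not tested. All 10 genes encoded by mitochondrial DNA were below 0 (9 of 10 with quantile normalization), with a median of -0.058. The values of ND6 (-0.29), ND3 (-0.11), COX3 (-0.10) and ND2 (-0.064) had the smallest p-values of these, and none passed or had an unadjusted p under 0.05 with limma.

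Of 14 regulators of mitochondrial genes 7 were above and 7 below 0 (8 and 6 with quantile normalization). The lowest p-values belonged to Gabpb2 (-0.37) and Gabpa (-0.14), subunits of the ETS factor GABP, to the coactivator gene Ppargc1a (-0.17) and to Max (0.15). Each had separate groups and none passed the threshold (limma adjusted p from 0.246 to 0.468). With Esrrg (-0.10), 4 of the 14 (28.6%) were separate and lower, against 12.4% of all genes and 18.7% of those above the median row. Separate and higher was 1 (7.14%), against 9.41% and 10.9%. By symbol, the cytosolic ribosomal protein genes, many of which have near-identical pseudogene copies, had 48 of 57 above 0, a median of 0.24 and 5 genes that rose over all genes with limma (8.77%, beside the 0.428% of all genes called in either direction). Of the 3 measured subunit genes of the mitochondrial ribosome that carry other symbols, the difference was 0.22 (95% interval 0.034 to 0.42, limma adjusted p = 0.279) for Gadd45gip1 with separate groups, 0.077 for Dap3 with separate groups and -0.090 for Ptcd3. No difference between these lists was tested.

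**Figure D4:**
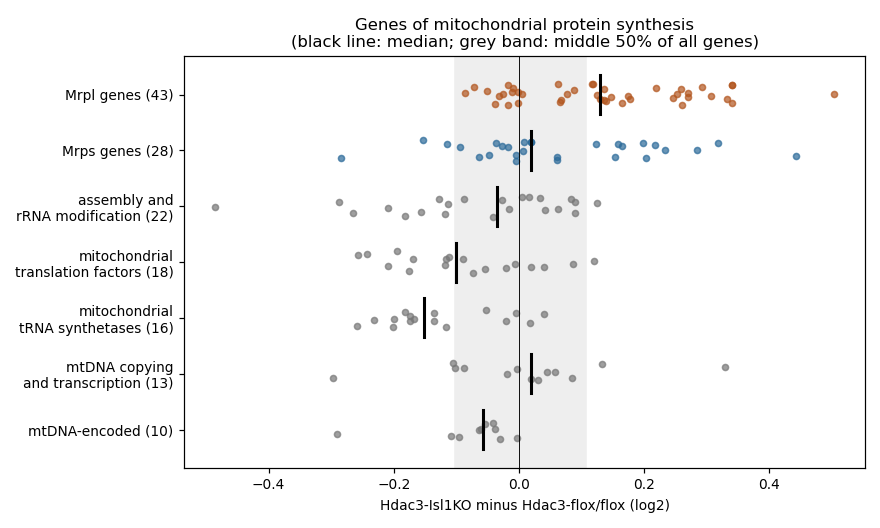
Differences between Hdac3-Isl1KO and Hdac3-flox/flox hearts (x axis, log2) for genes of mitochondrial protein synthesis, 1 point a gene and 1 row a list (y axis, number of measured genes in brackets); black lines are medians and the grey band spans the quartiles of all genes. The Mrpl median of 0.13 lies to the right of the band and the tRNA synthetase median of -0.15 to its left.

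Many of these genes start next to another gene on the opposite strand. Of the 62 with a promoter window, 20 (32.3%) had a window that shared at least 1 base with that of another measured protein-coding gene on the other strand, against 7.27% of 15359 genes with a window. The 20 genes formed 19 pairs, 1 of them between Mrps11 and Mrpl46. Mrpl46 was counted as the partner in that pair. The median difference was 0.14 for the mitochondrial ribosomal protein genes of these pairs and -0.0017 for the partners, 14 and 7 of 19 were above 0, and the signs agreed in 10 of 19 pairs.

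In 10 of the 14 pairs whose ribosomal protein gene was above 0, the partner differed by less than 0.1 in either direction. One such partner, Mrpl46, is itself a mitochondrial ribosomal protein gene. Over all genes 11500 of 22180 differed by more than 0.1, and 6129 of the 12480 above the median row did. Mrpl57 differed by 0.31 and its partner Ska3, a kinetochore gene, by 0.014. Mrps18c differed by 0.28 and the helicase gene Helq by -0.061, and Mrpl18 by 0.25 and the chaperonin gene Tcp1 by -0.00089. Both genes were higher, for example, for Mrpl32 (0.25) with the proteasome gene Psma2 (0.24), for Mrpl47 (0.14) with the respiratory complex gene Ndufb5 (0.22), and for Mrpl49 (0.088) with Fau (0.34), which encodes a cytosolic ribosomal protein. Both genes were lower for Mrpl2 with Klc4 (-0.0024 and -0.15), Mrpl27 with Eme1 (-0.0090 and -0.014), Mrps27 with Ptcd2 (-0.11 and -0.11) and Mrps5 with Zfp661 (-0.0056 and -0.23). Mrpl37 (-0.051) was the 1 lower gene with a higher partner, Cyb5rl (0.27). No partner passed with limma over all genes. Split by promoter letters, the median difference was 0.13 (23 genes) and 0.065 (39 genes) with and without an ETS match, 0.16 (12 genes) and 0.091 (50 genes) for YY1, 0.12 (7 genes) and 0.12 (55 genes) for NRF1, 0.092 (24 genes) and 0.12 (38 genes) for the CCAAT box, 0.065 (5 genes) and 0.12 (57 genes) for the TATA box and 0.28 (5 genes) and 0.12 (57 genes) for the E-box. The order of the medians differed between motifs, and these are descriptions over few genes.

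**Figure D5:**
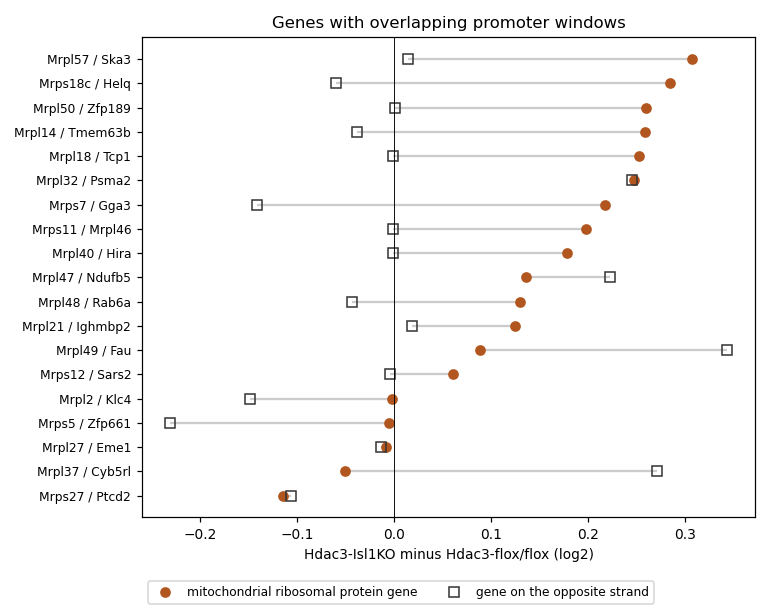
Differences between Hdac3-Isl1KO and Hdac3-flox/flox hearts (x axis, log2) for 19 pairs of genes with overlapping promoter windows on opposite strands (y axis); filled circles are the mitochondrial ribosomal protein gene and open squares the gene on the other strand. The circles reach 0.31 for Mrpl57 while the squares have a median of -0.0017, with those of Fau, Cyb5rl, Psma2, Zfp661 and Ndufb5 farther out.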

How the data were processed

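Log2 expression values of 6 arrays were used as the authors deposited them. Per the submitters' processing notes they were made with oligo and RMA, a method that corrects background, quantile normalizes and summarises probes; versions, build and annotation: not given in the sources used here. Total RNA, 100 ng, was labelled with an Affymetrix WT PLUS kit, per the labels' protocols. Depth has no meaning for arrays: the number of arrays limits precision, and without detection calls or scan dates dim values and batches could not be tested.

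Gene symbols came from a platform annotation table: 23521 of 41345 rows had 1 symbol, 1814 several and 16010 none listed. RefSeq types (GRCm38.p6) were matched by gene number for 23328 rows. Of several rows of a gene the one with the highest mean was used, giving 22180 genes.

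Groups were compared with limma 3.58.1 in R 4.3.3 (lmFit, eBayes with a constant prior, two-sided, Benjamini-Hochberg over all genes, threshold 0.05), and the steps were tested on simulated data. Plots used matplotlib 3.10.9 in Python 3.11.15. Motifs and neighbours were read from RefSeq promoter windows.

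Members, lists and tests were chosen with earlier results of these data known. Genes were named by rule: members past the threshold, the 12 highest and 12 lowest differences, those with several rows, listed positions in the ribosome, and up to 4 smallest p-values of each other list; motifs, neighbours and other genes with separate groups were added after the values were seen. Results were recomputed with a replicate block, without each array in turn, and with other scalings, filters on dim genes, row means, other priors, array weights, subunits by structure and protein-coding genes only.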

Additional observations from a re-analysis of the deposited data

How the results depend on the processing

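The family median stayed above 0 under every alternative run, between 0.079 and 0.14, and the large minus small difference stayed above 0, between 0.070 and 0.11. That difference was 0.11 as reported, 0.094 with array weights, 0.085 with the mean of a gene's rows, 0.070 as a difference of means and 0.084 to 0.10 with 1 array left out. Leaving out Mrpl10 and Mrps18c, whose rows differ in sign (chosen after seeing the data), gave a family median of 0.088. Of the 71 genes 50 kept their sign under all 15 other settings of the fit, 39 above and 11 below 0, and no gene whose sign turned differed by more than 0.13. The replicate block, the filters on dim genes and the other priors leave every difference of these genes unchanged by construction. Under those settings no sign or median could turn. The 24 cases in which a gene moved past the threshold came from 8 genes, all higher.

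The count over all genes was 95, and 149 with quantile normalization, 617 when only genes above the median row were tested, 235 for those above the 25th percentile, 866 with a trended prior (with or without robust estimation), 243 with array weights and 2 to 25 with 1 array left out. Without Hdac3-Isl1KO replicate 1, 2 or 3 it was 2, 9 and 5, and without Hdac3-flox/flox replicate 1, 2 or 3 it was 6, 25 and 2. Among the mitochondrial ribosomal protein genes 0 were called as reported and with any 1 array left out, 1 with quantile normalization, 4 among genes above the median row, 2 among those above the 25th percentile, 8 with a trended prior, 7 with robust estimation and 2 with array weights. The filters test fewer genes by construction; other causes were not tested. The replicate block called 0 genes in all and 0 of the family, of which 15 had an unadjusted p under 0.05 (14 higher, 1 lower; 2744 of all genes), and same-numbered pools did not deviate together (correlations -0.013, -0.086 and 0.040).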
